A study of Mus musculus with 42 samples.

Results

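The nuclear genes for subunits of respiratory complex I were followed in RNA sequencing of mouse microglia, the resident macrophages of the brain. They were taken by gene symbol: every row whose name is Nduf followed by a, b, c, s or v and a number, which leaves out the assembly factors named Ndufaf and hyphenated pseudogenes. The table for cortex and hippocampus held 42 such symbols among 53546 rows, and the whole-brain table held 37 among 24421. Of the 42, 36 are subunits of the complex and 6 are relatives or copies. Complex I, the NADH:ubiquinone oxidoreductase, is the largest enzyme of the mitochondrial respiratory chain and its main entry point for electrons. Its matrix arm takes electrons from NADH and passes them along a flavin and a chain of iron-sulfur clusters to ubiquinone, and its membrane arm pumps protons. The membrane core is encoded by mitochondrial DNA and all other subunits by nuclear genes, so both genomes have to supply their parts.

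The study asked how gut bacteria, and acetate as one of their products, bear on the metabolism of microglia. The 42 libraries form 11 groups of C57BL/6 mice. Whole-brain microglia came from wild-type mice aged 6 to 12 weeks with a specific-pathogen-free flora (SPF, n = 3) or raised germ-free (GF, n = 5). Cortical microglia came from wild-type mice aged 16 weeks that were SPF, GF, or GF with acetate in the drinking water (n = 4 each). Hippocampal microglia came from the same 3 conditions at 16 weeks, from wild-type and 5xFAD mice, with 4, 3 and 4 mice for each genotype. The labels name acetate courses of 8 weeks and of 4 weeks without tying either to single libraries, so the length of treatment in the acetate groups is uncertain. 5xFAD mice model amyloid disease and carry human transgenes with familial Alzheimer mutations under the neuronal Thy1 promoter, so the mutant proteins are made mainly by neurons and not by microglia. Cells were sorted as CD11b+ CD45lo. Libraries carry the condition and animal number of their labels (SPF1, GF529, and GFA518 for acetate). Replicates carry separate mouse numbers, so a p-value here is set by the spread between mice of a group.

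Total counts ran from 19329304 to 25366393 reads in whole brain, 15790383 to 23860490 in cortex and 5743891 to 22532410 in hippocampus, where SPF4 of the wild type (5862938) and SPF2142 of 5xFAD (5743891) were shallow. All 8 defining microglial genes had counts in both tables, with summed levels of 74036.5 to 77813.3 CPM (reads of a gene scaled to the library's total) in whole brain and 37506 to 62479.5 in the other libraries. Neutrophil markers summed to at most 259 CPM, erythroid markers to at most 72.5 and T and NK cell markers to at most 1.8. The library labelled 5xFAD SPF2152 stood apart from its group: Cst7 and Clec7a, genes that microglia switch on around amyloid, were at 13.2 and 23.9 CPM there, against 351 to 789.5 and 75 to 308.5 CPM in the other 10 5xFAD libraries and 4.27 to 22.4 and 0.502 to 47.7 CPM in wild-type hippocampus. In cortex, SPF1 and GFA518 had the lowest mean complex I level, 5.00 and 5.15 as the mean of log2(CPM + 1), and also the lowest ribosomal protein level, 4.99 in each. In bulk RNA, fewer cells of a type and less RNA per cell cannot be told apart.

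The 36 subunits were ordered by their place in the enzyme. The 7 nuclear core subunits, among them Ndufv1, Ndufv2, Ndufs1 and Ndufs7, carry the NADH site, the flavin and the iron-sulfur clusters. Around them, 9 accessory subunits sit on the matrix arm (Ndufv3, Ndufs4, Ndufs6, Ndufa2, Ndufa5, Ndufa6, Ndufa7, Ndufa9 and Ndufa12). On the part of the membrane arm nearest to the matrix arm sit another 9 (Ndufa1, Ndufa3, Ndufa8, Ndufa10, Ndufa11, Ndufa13, Ndufc1, Ndufc2 and Ndufs5), and on its far end sit 11 (Ndufb1 to Ndufb11). The other 6 symbols are Ndufa4, now counted as a subunit of cytochrome c oxidase, its relative Ndufa4l2, and the copies Ndufa11b, Ndufb4c, Ndufb11b and Ndufs6b. Ndufab1, the mitochondrial acyl carrier protein and a genuine subunit, falls outside the naming rule and is described beside the members.

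A filter on low counts left 37 members to test in cortex and hippocampus, the 36 subunits and Ndufa4. In whole brain it left 35. Ndufb1 has no row in the whole-brain table, and Ndufs5 and Ndufa4l2 did not pass there. The 5 members never tested (Ndufa4l2, Ndufa11b, Ndufb4c, Ndufb11b and Ndufs6b) were at or near 0: Ndufa11b averaged 0.43 CPM per kb of transcript in cortex SPF and Ndufb4c 0.154. Ndufs5, a small subunit on the intermembrane-space side of the membrane arm, had counts in 1 of 8 whole-brain libraries, at 0.0424 CPM, and 5.85 to 15.5 CPM in each of the 34 others. It shares 41.2% of its 50-base stretches with the predicted copy BC002163, which was at 0.231 to 1.17 CPM in whole brain. Ndufab1 differed likewise between the tables, with 1.59 to 3.53 CPM in whole brain and 29.5 to 55.6 CPM elsewhere. Levels were therefore compared within a table only.

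Per kb of transcript, microglia of SPF mice carried the subunit mRNAs at levels spread over more than a factor of 10. Ndufc2, a small membrane subunit of the proximal arm, was the most abundant of the 35 subunits with a known length in all 3 tissues: 154.4 ± 11.8 CPM per kb in hippocampus (SD, n = 4), 122.8 ± 30.4 in cortex (n = 4) and 170.8 ± 10.4 in whole brain (n = 3). The core subunit Ndufs7, which holds the last cluster before ubiquinone, followed in hippocampus at 117.9 ± 9.34, with Ndufb8 at 104.4 ± 15, and Ndufs8 and Ndufa7 both at 101.1. These neighbours lay within their spread of each other. At the lower end of the hippocampal order stood Ndufs5 (19.2 ± 2.19), Ndufa12 (18.7 ± 0.429), Ndufc1 (18.1 ± 3.31) and Ndufb4 (10.5 ± 2.64). Ndufb4 was lowest among tested subunits in whole brain too, at 7.04 ± 1.47 CPM per kb. It shares 37% of its 50-base stretches with Ndufb4c, and reads of such copies can be lost or assigned to either. Ndufa4 would rank just behind Ndufc2 in hippocampus, at 139.2 ± 17.8 CPM per kb.

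**Figure D1:**
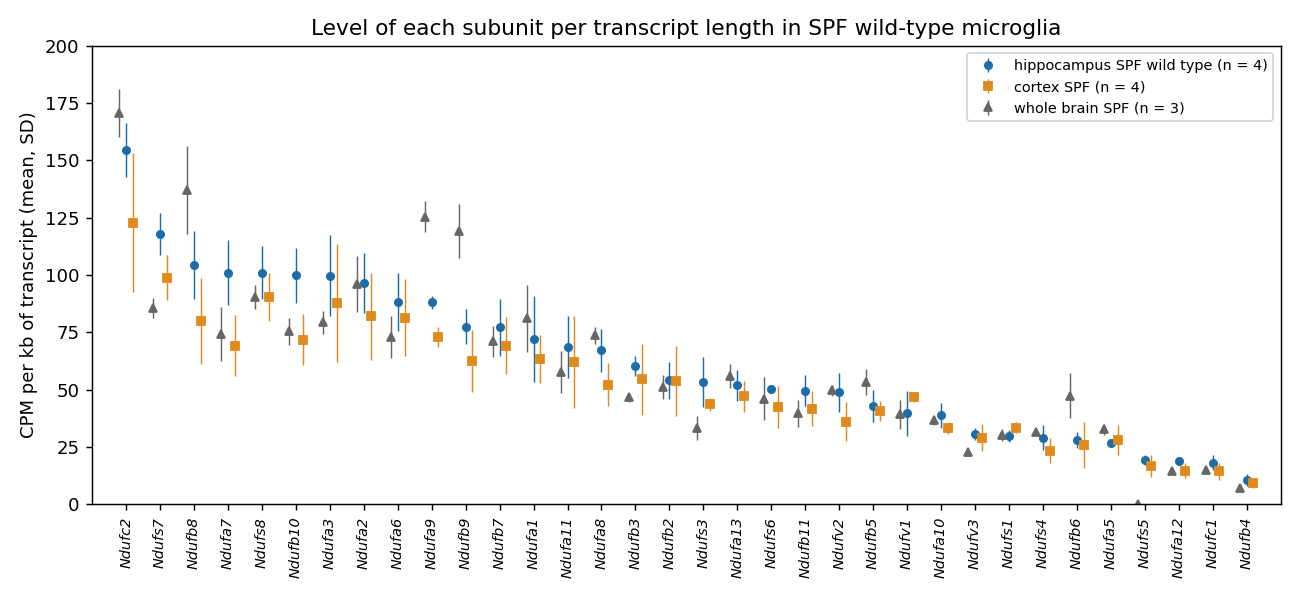
Mean CPM per kb of transcript (vertical axis; whiskers are SD) of 34 subunits, in order of their hippocampal level, in wild-type SPF microglia of hippocampus (circles, n = 4), cortex (squares, n = 4) and whole brain (triangles, n = 3, a separate table). Ndufc2 is the highest in each tissue and Ndufb4 lies at the low end, while Ndufs5 is at 0 in whole brain SPF.

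Against that spread between genes, differences between conditions were small. The design gave 16 pairwise comparisons and 590 values of a member in a comparison. Of these, 581 had a log2 difference of less than 0.5 in size and 2 reached 1. Standard errors ran from 0.066 to 0.293 with a median of 0.157, and 51 values had an unadjusted p under 0.05. The share of all genes at that cutoff is given for the region comparisons only, so the other counts at it are a description. A member was called where edgeR's quasi-likelihood test gave a Benjamini-Hochberg adjusted p under 0.05 over all genes tested. Ndufa1 was the only member called in any comparison. Both of its calls were 5xFAD against wild type in hippocampus.

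**Figure D2:**
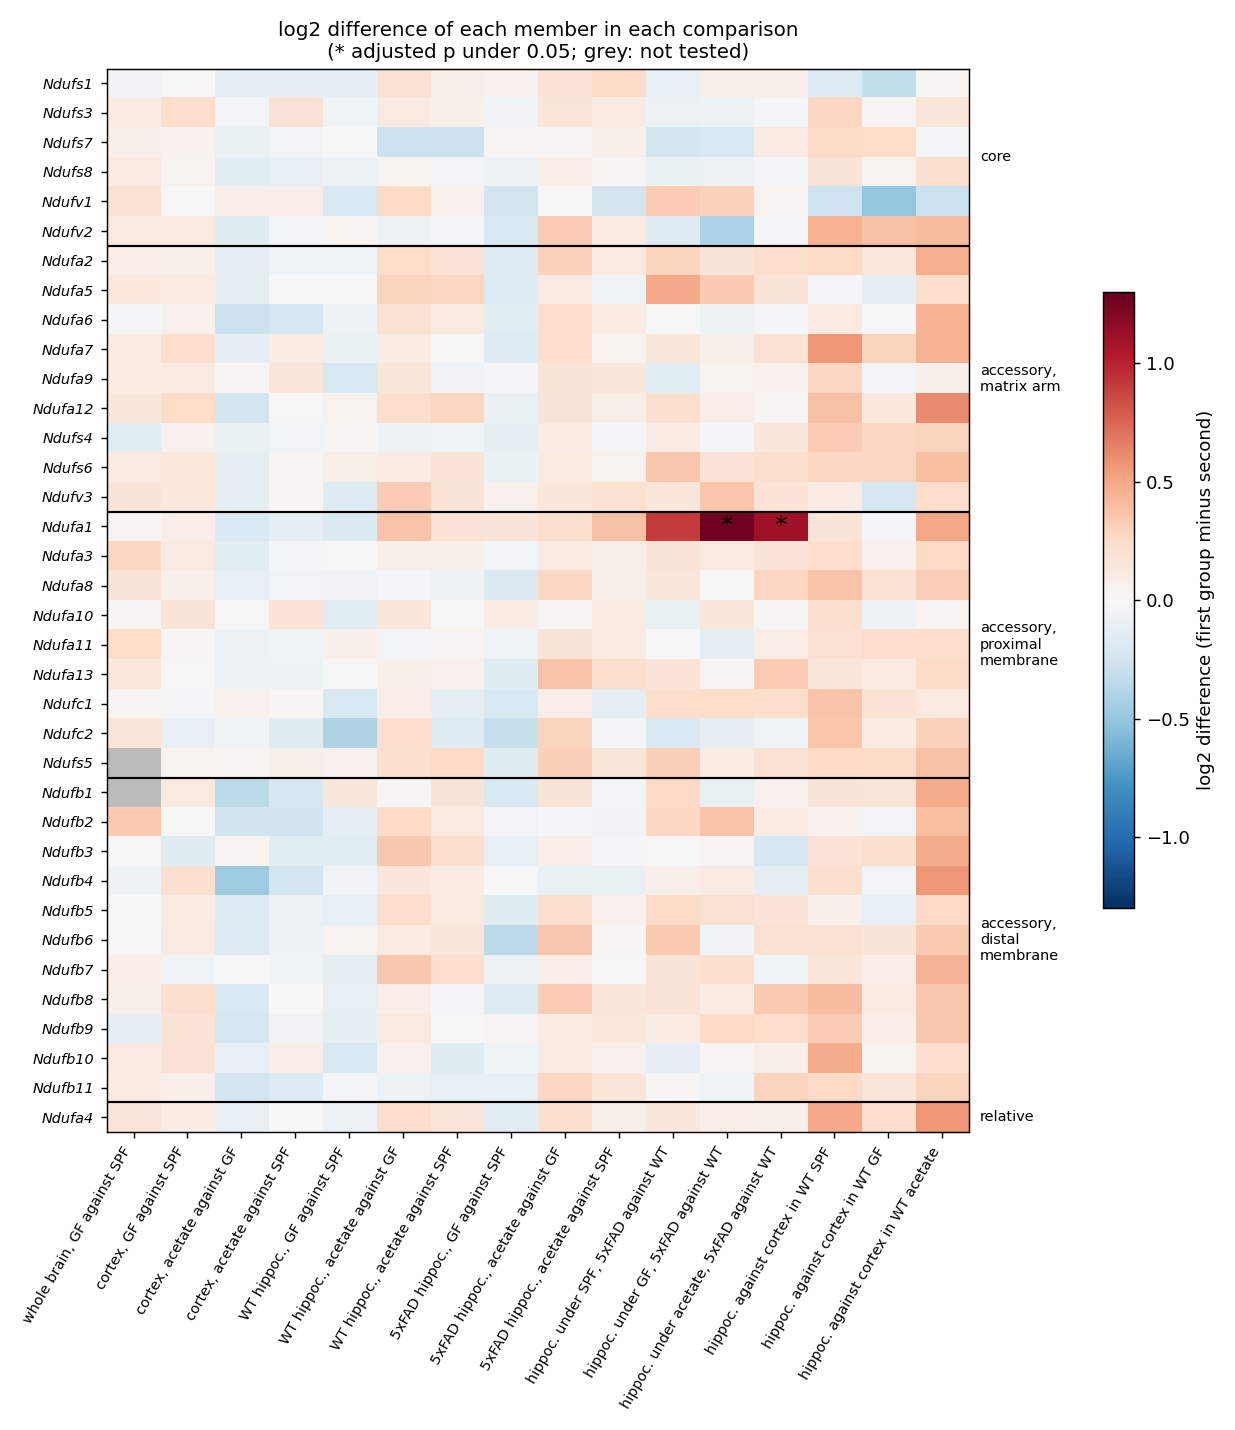
log2 difference (color, first group minus second) of 36 tested members (rows, in blocks by place in the enzyme) in each of 16 comparisons (columns), with an asterisk where the adjusted p was under 0.05 and grey where a gene was not tested. Ndufa1 in 5xFAD against wild-type hippocampus stands out under GF and acetate, and most other cells are pale.

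Ndufa1 is a small single-span membrane protein, MWFE in the older nomenclature, that sits at the junction of the matrix and membrane arms and is needed for assembly of the complex. It is X-linked. Its coding sequence in GENCODE M21 on GRCm38 is 213 bases long, 70 codons and a stop, within a transcript of 419 bases. It is shown because this mRNA carries the largest difference of the family, with the start and stop codons in capitals. No 50-base stretch of the transcript occurs in another annotated gene.
Ndufa1: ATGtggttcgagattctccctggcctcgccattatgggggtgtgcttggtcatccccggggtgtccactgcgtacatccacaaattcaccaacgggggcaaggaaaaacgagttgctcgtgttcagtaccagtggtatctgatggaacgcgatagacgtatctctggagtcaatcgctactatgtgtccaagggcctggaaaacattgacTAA

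Ndufa1 mRNA was about 2-fold above wild type in hippocampal microglia of 5xFAD mice, with and without acetate. In GF mice the wild-type libraries GF529, GF530 and GF532 had 22.4, 22.2 and 34.3 CPM, and the 5xFAD libraries GF526, GF527 and GF531 had 70.7, 62.7 and 55.6 CPM. The groups did not overlap. The rise was 2.4-fold (log2 1.26, SE 0.279, adjusted p = 0.03 by edgeR). In acetate-treated mice the wild-type libraries GFA518, GFA523, GFA524 and GFA525 had 26.7, 36.4, 35.2 and 39.1 CPM. The 5xFAD libraries GFA519, GFA520, GFA521 and GFA522 had 71.8, 77.7, 66.6 and 79.2 CPM. Every 5xFAD library again lay above every wild-type one, and the rise was 2.14-fold (log2 1.10, SE 0.24, adjusted p = 0.012 by edgeR).

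Under SPF the same difference missed the threshold. Wild-type SPF1, SPF2, SPF3 and SPF4 had 22.1, 36.1, 37.6 and 25.1 CPM of Ndufa1, and 5xFAD SPF2140, SPF2142, SPF2152 and SPF2153 had 64.2, 89.4, 30 and 45.3 CPM. The groups overlapped through SPF2152 alone, the library with wild-type levels of Cst7 and Clec7a. The fitted log2 difference was 0.91 (SE 0.242, adjusted p = 0.091 by edgeR), and 1.12 (adjusted p = 0.0055) without that library. DESeq2 called it with all libraries (log2 0.93, adjusted p = 0.013). Without the 2 shallow libraries, SPF4 and SPF2142, it was 0.55 (adjusted p = 0.58). The 5xFAD difference in Ndufa1 was not shown to depend on the microbiota: it differed between GF and SPF by log2 0.35 (SE 0.365), between acetate and GF by -0.16 (SE 0.363) and between acetate and SPF by 0.19 (SE 0.338). None of these 3 was called, nor was any other gene in these interaction tests (0.0% of 17063 genes each; DESeq2 called 15, 7 and 25 genes, none of them members). The members with the smallest p in them were Ndufb6, Ndufb1 and Ndufa9 for GF against SPF (log2 -0.38, -0.36 and 0.19), Ndufv2, Ndufs7 and Ndufb11 for acetate against GF (0.40, 0.32 and 0.35) and Ndufs7, Ndufa9 and Ndufa5 for acetate against SPF (0.34, 0.20 and -0.33), with adjusted p of 0.81 or more. Each is the 5xFAD effect minus the wild-type one.

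**Figure D3:**
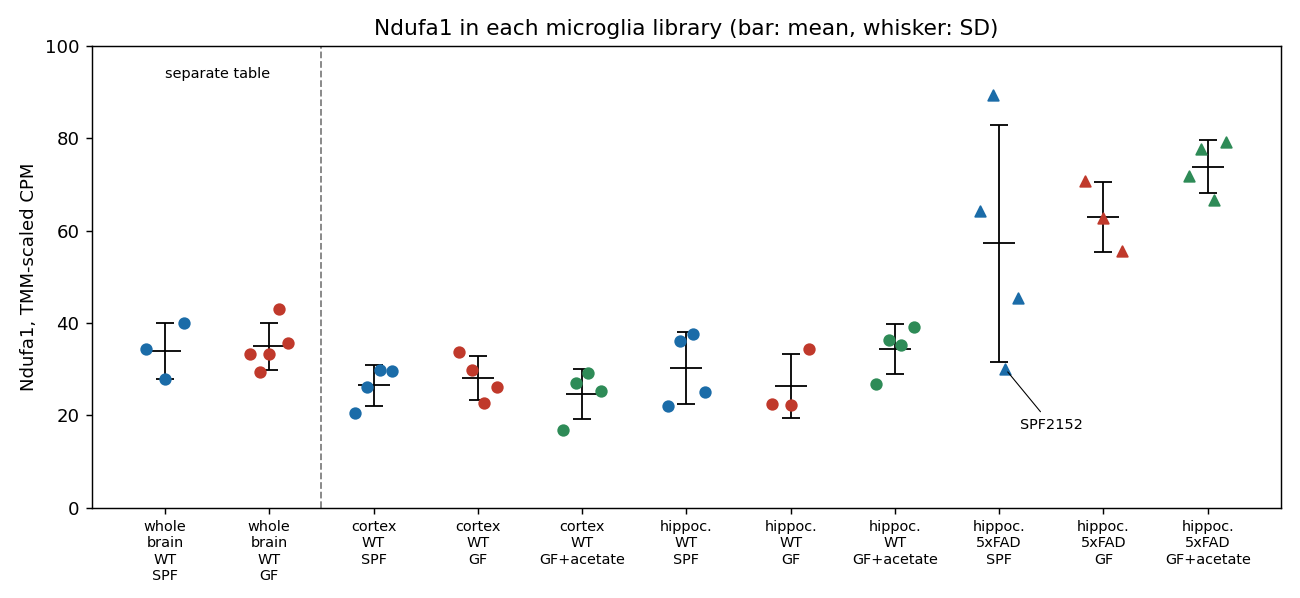
Ndufa1 in CPM scaled by the trimmed mean of M values (vertical axis) in each library, by group (circles wild type, triangles 5xFAD; bar and whiskers are mean and SD; the whole-brain groups come from a separate table). The 5xFAD libraries lie between 45.3 and 89.4 CPM, above the range of 22.1 to 39.1 CPM in wild-type hippocampus, except SPF2152 at 30 CPM.

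The GF call rested on all but 1 of its 6 libraries. It was lost without GF529, GF530, GF526, GF527 or GF531 in turn (adjusted p = 0.053 to 0.16) and kept without GF532 (adjusted p = 0.032), with log2 values from 1.158 to 1.495. The acetate call held in 14 of 14 alternatives (log2 0.99 to 1.17). Counts of Ndufa1 reads ran from 149 in shallow SPF4 to 1503, so counting error was small beside the spread between mice. Against the mean of the other subunits in the same library, on the log2(CPM + 1) scale, Ndufa1 stood 0.954 to 0.292 lower in wild-type hippocampus. In 5xFAD hippocampus it stood between -0.022 and 0.633 in 10 libraries and at -0.607 in SPF2152. In cortex the same difference was -1.02 to -0.48.

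Marker levels of hippocampal libraries were compared between genotypes within each condition. Under GF, the defining microglial genes summed to 39283.8 to 41350.5 CPM in wild type and 37506 to 38777.5 CPM in 5xFAD, and astrocyte markers (6 of 6 with counts) to 315.2 to 432.2 and 468.4 to 471.9 CPM, so neither pair of groups overlapped. With acetate, the microglial sums were 51039.2 to 53249 CPM in wild type and 43808.3 to 45939.4 CPM in 5xFAD, and border macrophage markers (6 of 6) summed to 0.868 to 10.1 and 10.2 to 28.8 CPM, again with no overlap. Under SPF, the microglial sums were 50834.1 to 55878.2 CPM in wild type and 38160 to 52061.9 CPM in 5xFAD, where the highest is SPF2152. Oligodendrocyte markers (6 of 6), neuronal markers (7 of 7) and endothelial markers (5 of 6, Ly6c1 at 0) overlapped between genotypes under GF and with acetate. Among these markers, Pf4 of border macrophages and Flt1 of endothelial cells were called higher in 5xFAD under acetate (adjusted p = 0.02 and 0.0078 by edgeR), and the microglial genes P2ry12 and Cx3cr1 were called lower (log2 -0.76 and -0.39). Pf4 and Flt1 had log2 values of 5.59 and 5.49 with SEs of 1.283 and 1.135. Endothelial markers summed to 14 to 44.4 CPM in wild type and 28 to 39.6 CPM in 5xFAD there. The microglial gene Fcrls was called lower in 5xFAD under SPF (log2 -0.98, adjusted p = 0.017). Their part in the Ndufa1 difference was not tested.

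No call was made among the genes next to Ndufa1 on the X chromosome. Within 400 kb of it, 10 genes were tested and 0 were called in any of the 3 genotype comparisons. The lowest adjusted p among them was 0.67 under GF, 0.27 under SPF and 0.2 under acetate. The closest, Rnf113a1, starts beside Ndufa1 on the opposite strand and had log2 values of 0.25, 0.42 and -0.12 under SPF, GF and acetate, each with an SE over 0.5.

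Among the other members, 5xFAD against wild type gave no call. By edgeR 0 of 37 members passed under SPF (0.568% of all genes did), 1 under GF (0.756%) and 1 under acetate (2.51%). The counts at unadjusted p under 0.05 were 4, 3 and 2, and DESeq2 called 1, 1 and 1, each time Ndufa1. How many of all genes DESeq2 called is given for the interaction tests only, so its other counts of members are a description. Members lay above 0 in 28, 24 and 28 of 37, with medians of log2 0.14, 0.08 and 0.10 against 0.01, -0.002 and 0.001 over all genes. The SPF median depended on the 2 shallow libraries and was 0.012 without them. It was 0.186 without SPF2152. The GF median was at 0 without GF526, and the acetate median ran from 0.064 to 0.179 with single libraries left out. Groups did not overlap for 2 members under SPF (5.1% of all genes), 5 under GF (16.7%) and 1 under acetate (9.14%). For each condition the share of members was close to or under that of all genes.

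The matrix-arm subunit Ndufa5 came next to Ndufa1 under SPF. Wild-type libraries had 23.8, 23.8, 22.7 and 23.6 CPM and 5xFAD libraries 36.8, 42.2, 26.8 and 26.8 CPM, which do not overlap, yet the log2 difference of 0.50 did not pass (SE 0.171, adjusted p = 0.25 by edgeR). Ndufb6, in the distal arm, followed (log2 0.34, SE 0.152, adjusted p = 0.44). In the GF groups Ndufa5 had 21.7, 23.4 and 24.2 CPM in wild type and 34.5, 28.7 and 24.2 CPM in 5xFAD. Ndufv2, a core iron-sulfur protein of the NADH module, lay the other way under GF: 70.6, 88.8 and 91.1 CPM in wild type against 65.3, 62.6 and 59.8 CPM in 5xFAD (log2 -0.42, SE 0.153, adjusted p = 0.29). Ndufv3, the accessory subunit beside it, had 39.7, 41.3 and 46.9 CPM in wild type and 62.9, 52.0 and 49.1 CPM in 5xFAD (log2 0.36, adjusted p = 0.32). Neither passed. Under acetate the next was Ndufb8, a distal membrane subunit often used as a gauge of assembled complex I (log2 0.34, SE 0.13, adjusted p = 0.21), and then Ndufa13 (log2 0.33, adjusted p = 0.39).

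By place in the enzyme, 5xFAD against wild type had core medians below 0 and accessory medians above 0. The 7 core members had 2, 2 and 3 values above 0 under SPF, GF and acetate (medians of log2 -0.09, -0.07 and -0.01). The 9 matrix-arm accessory members had 8, 7 and 8 (0.16, 0.09 and 0.16), the 9 proximal membrane members 7, 6 and 8 (0.17, 0.10 and 0.20), and the 11 distal members 10, 8 and 8 (0.17, 0.09 and 0.10). Core transcripts are longer, with a median of 1623 bases against 718 for the accessory subunits, and no difference between the blocks was tested. The 13 tested members of 1000 bases or more had medians of log2 0.11, 0.073 and 0.055 under SPF, GF and acetate. The 23 shorter ones had 0.149, 0.091 and 0.164. The part of length in the block medians was not tested. Ribosomal protein genes, which are short and highly expressed, lay above 0 in 74, 68 and 75 of 75 (medians of log2 0.24, 0.24 and 0.54; 0, 0 and 15 called). Their part in the accessory medians was not tested.

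The mitochondrially encoded core showed a call of its own. mt-Nd5, the proton-pumping subunit at the far end of the membrane arm, had 255.1, 253.5 and 240.4 CPM in GF wild-type hippocampus and 445.2, 385.0 and 349.4 CPM in GF 5xFAD (log2 0.66, SE 0.125, adjusted p = 0.012 by edgeR). With acetate it had 224.5, 250.2, 241.7 and 306.8 CPM in wild type and 333.8, 413.0, 405.6 and 422.8 CPM in 5xFAD (log2 0.62, SE 0.109, adjusted p = 0.002). The groups did not overlap in either case, as for 16.7% of all genes under GF and 9.14% with acetate. Under SPF, mt-Nd5 had 244.1, 246.4, 274.1 and 241.9 CPM in wild type and 305.0, 392.9, 296.1 and 336.9 CPM in 5xFAD. These groups did not overlap either (5.1% of all genes did not), but the log2 difference of 0.41 did not pass (adjusted p = 0.092 by edgeR). Of the 6 mitochondrial Nd genes tested, 0, 1 and 1 were called under SPF, GF and acetate, with medians of log2 0.04, 0.44 and 0.35. mt-Nd4l was at or near 0 in every library and was not tested. The whole-brain table held no mitochondrial genes.

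Whether germ-free life changes the subunit genes was asked in 4 settings, and no member was called in any. In whole brain 0 of 35 passed by edgeR, where 1.99% of all genes did; 2 had an unadjusted p under 0.05 and DESeq2 called 0. Ndufa3, a single-span subunit of the proximal arm, had 40.0, 38.6 and 43.8 CPM in SPF and 46.4, 41.9, 46.9, 58.8 and 51.8 CPM in GF libraries 1 to 5 (log2 0.27, SE 0.123, adjusted p = 0.32). Ndufb2, in the distal arm, had log2 0.34 (SE 0.154, adjusted p = 0.32), and Ndufa8, a proximal-arm subunit on the intermembrane-space side, log2 0.17 (SE 0.088, adjusted p = 0.38). Only Ndufa8 had groups that did not overlap, as did 11.3% of all genes: 63.9, 60.1 and 66.3 CPM against 72.4, 67.9, 74.6, 67.4 and 75.1 CPM. In all, 29 of 35 members lay above 0, with a median of log2 0.10 against 0.00 over all genes. That median was 0.048 without SPF3 and at most 0.133 with another library left out.

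In cortex, GF against SPF gave 0 calls of 37 (1.71% of all genes) by edgeR, 0 at unadjusted p under 0.05 and 0 by DESeq2. The 3 members with the smallest p were Ndufa10 (log2 0.17), Ndufs3 (0.22) and Ndufb10 (0.18), with adjusted p of 0.51, 0.5 and 0.62. No member's groups were free of overlap (7.41% of all genes were). The median was log2 0.08 with 29 of 37 above 0, and it turned to -0.03 without SPF1, the library with the lowest complex I level. Microglial markers moved in the same comparison: Fcrls and Olfml3 were lower in GF (log2 -0.93 and -0.84), as was Mrc1 of border macrophages (-1.61, adjusted p = 0.0011 by edgeR). Their part in the members' median was not tested.

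In hippocampus the medians lay on the other side of 0. GF against SPF in wild type had 27 of 37 members below 0 (median log2 -0.07) and in 5xFAD 31 of 37 (median log2 -0.11). By edgeR 0 were called in each (0.727% and 1.82% of all genes), 1 had an unadjusted p under 0.05 in each, and DESeq2 called 0. That 1 member was Ndufc2 both times. In wild type it had 93.5, 108.9, 111.1 and 108.2 CPM under SPF and 73.9, 84.3 and 80.0 CPM under GF (log2 -0.39, SE 0.129, adjusted p = 0.18). In 5xFAD it had 96.6, 94.5, 85.3 and 89.0 CPM under SPF and 79.8, 76.1 and 64.1 CPM under GF (log2 -0.30, SE 0.129, adjusted p = 0.32). The GF libraries lay below all SPF libraries in both genotypes, which come from different mice, but neither difference passed. Ndufa9, which binds a nucleotide cofactor in the matrix arm, was next in wild type (log2 -0.20, SE 0.1, adjusted p = 0.4), and then Ndufb10 (-0.21, adjusted p = 0.6). In 5xFAD it was Ndufb6 (log2 -0.34, adjusted p = 0.43). Groups did not overlap for 2 members in wild type (11.2% of all genes) and 3 in 5xFAD (13.9%). With single libraries left out, the median ran from -0.143 (without GF532) to -0.014 (without SPF2) in wild type. In 5xFAD it ran from -0.169 (without SPF2152) to -0.035 (without SPF2142). Microglial marker sums also differed: in wild type they were 50834.1 to 55878.2 CPM under SPF and 39283.8 to 41350.5 CPM under GF, and Olfml3 and Fcrls were called lower in GF (log2 -0.87 and -1.10). In 5xFAD Olfml3 was called lower (log2 -0.76), and astrocyte markers summed to 237.8 to 307.9 CPM under SPF and 468.4 to 471.9 CPM under GF, with Slc1a3 called higher (log2 0.83, adjusted p = 0.0098 by edgeR). Their part in the members' medians was not tested.

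Acetate against GF also gave no call. By edgeR 0 of 37 passed in cortex (0.973% of all genes), wild-type hippocampus (0.492%) and 5xFAD hippocampus (0.082%). The counts at unadjusted p under 0.05 were 1, 2 and 4, and DESeq2 called 0, 0 and 0. Members lay below 0 in 30 of 37 in cortex (median log2 -0.12). They lay above 0 in 31 of 37 in wild-type hippocampus (median log2 0.13) and in 34 of 37 in 5xFAD hippocampus (median log2 0.17). Medians over all genes were -0.01, 0.01 and 0.01. Ribosomal protein genes had medians of -0.20, -0.07 and 0.24, so they lay on the same side of 0 as the members in cortex and 5xFAD hippocampus and on the other side in wild-type hippocampus. With single libraries left out, the members' median ran from -0.164 to -0.027 in cortex (the latter without GFA518), from 0.082 (without GF530) to 0.212 (without GF532) in wild-type hippocampus and from 0.12 to 0.229 in 5xFAD hippocampus. Microglial marker sums in cortex were 41293.6 to 46663.3 CPM in GF and 51382.6 to 56786.7 CPM with acetate. In wild-type hippocampus they were 39283.8 to 41350.5 CPM in GF and 51039.2 to 53249 CPM with acetate. In 5xFAD hippocampus they were 37506 to 38777.5 CPM in GF and 43808.3 to 45939.4 CPM with acetate. The microglial sums did not overlap in any of the 3 settings. Astrocyte marker sums were lower with acetate in cortex (353.3 to 468.7 CPM in GF, 231.5 to 326.2 CPM with acetate). In 5xFAD hippocampus they were 468.4 to 471.9 and 227.3 to 343.9 CPM. Oligodendrocyte marker sums were higher with acetate in cortex (151.8 to 175.9 and 183.3 to 203.5 CPM). In 5xFAD hippocampus they were 140.5 to 148.2 and 150.2 to 176.9 CPM. None of these pairs overlapped, while both did in wild-type hippocampus. The microglial gene Olfml3 was higher with acetate in all 3 settings (log2 0.73, 0.66 and 0.66), and in cortex Fcrls was higher (0.61) and Slc1a3 of astrocytes lower (-0.58, adjusted p = 0.028 by edgeR). In wild-type hippocampus the microglial gene P2ry12 was higher as well (log2 0.64, adjusted p = 0.013 by edgeR). Their part in the members' medians was not tested.

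In cortex the member with the smallest p was Ndufb4, a distal-arm subunit. It had 10.9, 10.6, 9.98 and 9.41 CPM in GF and 5.75, 7.98, 7.78 and 8.24 CPM with acetate (log2 -0.46, SE 0.209, adjusted p = 0.4 by edgeR). Its groups did not overlap, nor did those of Ndufa12 (8.62% of all genes). Ndufa6 (log2 -0.28, adjusted p = 0.55) and Ndufb1 (-0.35, adjusted p = 0.62) followed. In wild-type hippocampus Ndufv3 had 39.7, 41.3 and 46.9 CPM in GF and 52.3, 56.6, 50.2 and 56.7 CPM with acetate (log2 0.33, SE 0.13, adjusted p = 0.31). Ndufb3 (log2 0.35, adjusted p = 0.35) and the core subunit Ndufs7 (-0.28, adjusted p = 0.45) came next. Groups did not overlap for Ndufv3 and Ndufb3 (8.8% of all genes). In 5xFAD hippocampus Ndufb8, Ndufv2 and Ndufc2 had the smallest p (log2 0.33, 0.33 and 0.29; adjusted p = 0.58, 0.58 and 0.61). Ndufv2 had 65.3, 62.6 and 59.8 CPM in GF and 76.6, 79.5, 72.2 and 90.1 CPM with acetate. The groups of 7 members did not overlap there, all with acetate above (11.5% of all genes did not overlap).

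GF and acetate comparisons of a tissue share libraries, so their values are given side by side only. Ndufc2 in 5xFAD hippocampus had log2 -0.30 in GF against SPF, 0.29 in acetate against GF and -0.02 in acetate against SPF, and in wild type -0.39, 0.22 and -0.17. Acetate against SPF left no member with groups free of overlap in any of its 3 settings (4.18%, 3.94% and 4.94% of all genes were free of it). It called 0 of 37 members by edgeR in cortex (0.364% of all genes), wild-type hippocampus (0.123%) and 5xFAD hippocampus (0.0527%). At unadjusted p under 0.05 there were 0, 1 and 0, and by DESeq2 0, 0 and 0. The 1 was Ndufs7 in wild-type hippocampus, with 79.7, 96.7, 89.8 and 91.3 CPM under SPF and 68.9, 78.7, 58.3 and 87.7 CPM with acetate (log2 -0.28, SE 0.13, adjusted p = 0.6). These groups overlapped. Medians of all members were log2 -0.04, 0.06 and 0.07. With single libraries left out they ran from -0.159 to 0.059, from 0.027 to 0.112 and from 0.007 (without SPF2152) to 0.136. The next in wild type were Ndufa5 (log2 0.28, adjusted p = 0.72) and Ndufb3 (0.21, adjusted p = 0.76). In cortex the smallest p belonged to Ndufa10, an accessory subunit of the kinase-like fold (log2 0.17, adjusted p = 0.81), Ndufa9 (0.14, adjusted p = 0.83) and Ndufs3 (0.19, adjusted p = 0.88). In 5xFAD hippocampus they were Ndufs1, the largest subunit of the matrix arm (log2 0.25, adjusted p = 0.81), Ndufa9 (0.15, adjusted p = 0.87) and Ndufv3 (0.20, adjusted p = 0.86).

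**Figure D4:**
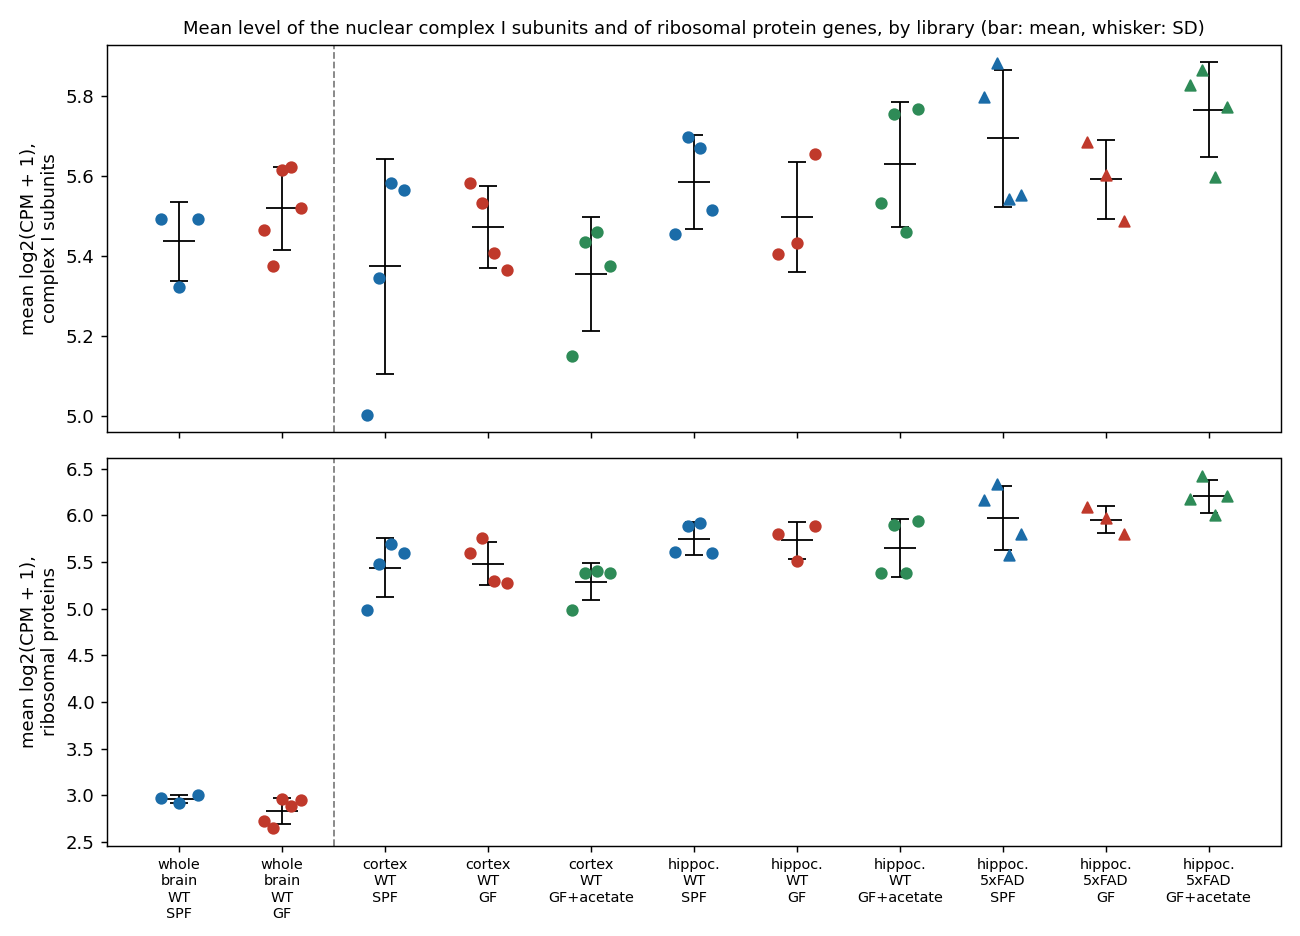
Mean of log2(CPM + 1) over the 36 subunits (upper panel, whole brain without Ndufb1) and over ribosomal protein genes (lower panel) in each library by group (circles wild type, triangles 5xFAD; bar and whiskers are mean and SD; the dashed line parts the separate whole-brain table). The complex I level is lowest in cortex SPF1 at 5.00 and highest in 5xFAD SPF2142 at 5.88, and in the upper panel groups of a tissue overlap. In the lower panel the 5xFAD acetate libraries (6.0 to 6.426) lie above all wild-type hippocampal libraries (at most 5.936).

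The mean complex I level, taken over the subunits in each library, showed the same overlap. In hippocampus it averaged 5.58 ± 0.118 in wild-type SPF (SD, n = 4), 5.50 ± 0.137 in GF (n = 3) and 5.63 ± 0.156 with acetate (n = 4). In 5xFAD it averaged 5.70 ± 0.172, 5.59 ± 0.0989 and 5.77 ± 0.119. In cortex the means were 5.37 ± 0.27, 5.47 ± 0.103 and 5.36 ± 0.142. The pooled SD between mice of a group was 0.138 in hippocampus and 0.186 in cortex, larger than any of these differences between conditions of a genotype except acetate against GF in 5xFAD.

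Cortex and hippocampus of the same 11 wild-type mice were compared with the animal as a block. Members had log2 values above 0 (hippocampus over cortex) in 34 of 37 under SPF, 26 of 37 under GF and 34 of 37 with acetate (medians of log2 0.22, 0.10 and 0.29 against -0.01, -0.04 and -0.06 over all genes). By edgeR 0 members were called in each condition (0.718%, 0.0359% and 2.38% of all genes). At unadjusted p under 0.05 there were 11, 3 and 16 members, 29.7%, 8.1% and 43.2% of those tested against 13.9%, 11.9% and 17.9% of all genes. DESeq2 called 6, 0 and 6. Its 6 under SPF were Ndufa7, Ndufa9, Ndufb8, Ndufb10, Ndufc2 and Ndufv2, and its 6 with acetate were Ndufa1, Ndufa4, Ndufa6, Ndufa12, Ndufb3 and Ndufv2. The shares of all genes called above are those of edgeR. The share called by DESeq2 is not given here, so its counts of members have no background beside them. Without the animals SPF1 and GFA518 edgeR again called 0 members, and the number of all genes called fell from 120 to 1 under SPF and from 397 to 27 with acetate.

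Single members differed by up to 1.5-fold between the regions. Ndufb10, a distal-arm subunit, had 63.9, 79.5, 81.8 and 67.4 CPM in hippocampus of SPF1 to SPF4 and 42.2, 49.9, 59.2 and 58.9 CPM in their cortex (log2 0.48, SE 0.135, adjusted p = 0.11 by edgeR), above in 4 of 4 animals. Ndufv2 (log2 0.45, adjusted p = 0.13) and the matrix-arm subunit Ndufa7 (0.56, adjusted p = 0.13) followed under SPF. With acetate, Ndufb3 had 48.2, 52.7, 53.9 and 56.3 CPM in hippocampus and 29.7, 41.2, 38.6 and 42.3 CPM in cortex (log2 0.49, SE 0.139, adjusted p = 0.076), again above in 4 of 4. Ndufa12, on the matrix arm, reached log2 0.61 (SE 0.186, adjusted p = 0.094), and the relative Ndufa4 reached 0.56 (adjusted p = 0.1).

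The core flavoprotein Ndufv1, which holds the NADH site, lay on the other side of 0. It had 51.2, 49.5 and 69.5 CPM in GF hippocampus and 84.9, 79.7 and 74.0 CPM in the cortex of the same mice (log2 -0.50, SE 0.159, adjusted p = 0.2), below in 3 of 3. Its values under SPF and acetate were -0.27 and -0.28, the lowest of the members in all 3 conditions. Ndufv2, its partner in the NADH module, had log2 0.45, 0.38 and 0.41 in the same comparisons. None of these passed. Ndufs1 (log2 -0.32, adjusted p = 0.33) was the other GF member with more mRNA in cortex among the 3 with the smallest p.

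**Figure D5:**
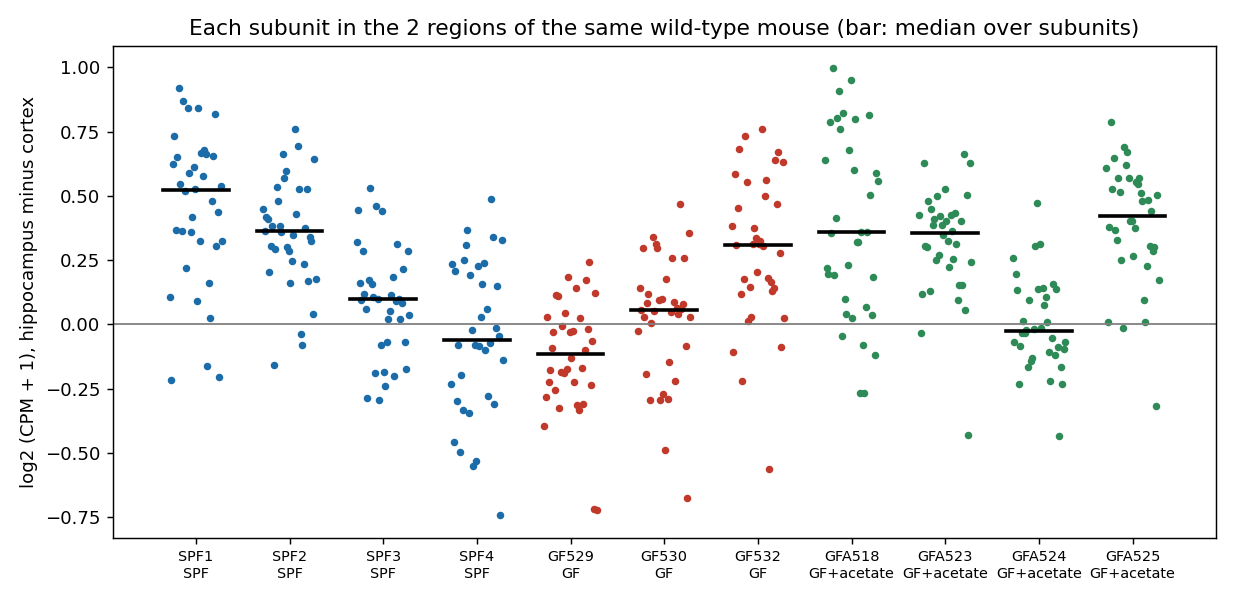
Difference in log2(CPM + 1) between hippocampus and cortex (vertical axis) for each of 36 subunits (points) in each of 11 wild-type mice (columns, colored by condition), with a bar at the median over subunits. Medians run from -0.116 in GF529 to 0.522 in SPF1, and are below 0 in SPF4, GF529 and GFA524, 1 animal of each condition.

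The regional difference varied between animals of one condition. Of the 36 subunits, 33, 33, 26 and 15 were above cortex in SPF1 to SPF4 (medians of 0.522, 0.362, 0.097 and -0.059). In GF529, GF530 and GF532 the counts were 10, 25 and 32 (medians of -0.116, 0.057 and 0.309). In GFA518, GFA523, GFA524 and GFA525 they were 31, 34, 15 and 34 (medians of 0.358, 0.356, -0.027 and 0.422). Each condition thus held at least 1 mouse in which most subunits were not above cortex. Ribosomal protein genes lay on the same side of 0 as the members between regions, with medians of log2 0.33, 0.29 and 0.37 under SPF, GF and acetate, and 0, 0 and 4 of 75 called. The microglial gene Csf1r was lower in hippocampus under SPF (log2 -0.37, adjusted p = 0.022 by edgeR) and with acetate (-0.43, adjusted p = 0.0056), and Tmem119 of microglia and Snap25 of neurons were lower with acetate (adjusted p = 0.027 and 0.043). Snap25 had log2 -6.0 (SE 1.455) at very low levels. With acetate all neuronal markers together summed to 0.137 to 1.79 CPM in wild-type hippocampus and 1.36 to 6.86 CPM in cortex. The part of the marker and ribosomal protein genes in the regional difference was not tested. The SPF median was 0.102 without SPF1. Among the mitochondrially encoded subunits mt-Nd2 (log2 0.62, adjusted p = 0.029 by edgeR) and mt-Nd4 (0.55, adjusted p = 0.046) were higher in hippocampus with acetate.

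The rest of the respiratory chain gave few calls in the 16 comparisons. No assembly factor of complex I (16 tested in whole brain and 19 elsewhere) and none of the 4 genes of complex II was called. Cox4i1 of complex IV was higher in 5xFAD than in wild type with acetate (log2 0.56, SE 0.144, adjusted p = 0.035 by edgeR), and Atp5g3 of ATP synthase was higher in hippocampus than in cortex with acetate (log2 0.54, SE 0.103, adjusted p = 0.019). Polg, the mitochondrial DNA polymerase, was higher in GF than in SPF 5xFAD hippocampus (log2 1.01, SE 0.197, adjusted p = 0.0069), and Pprc1, a coactivator of mitochondrial biogenesis, was lower in hippocampus with acetate (log2 -0.50, SE 0.119, adjusted p = 0.041). Ndufab1 was not called in any comparison. In the genotype comparisons it had log2 0.17, -0.05 and -0.31 under SPF, GF and acetate (lowest adjusted p = 0.4).

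Promoters of the members, 250 bases before to 50 after the start in RefSeq (GRCm38.p6), were found for 33 members and 27025 genes, and were searched on both strands. The binding motif of nuclear respiratory factor 1, a regulator of respiratory genes, was held by 7 of 33 members, 21.2% against 5.2% of all promoters. A motif of YY1, another regulator of such genes, was held by Ndufa9, Ndufs4, Ndufs6 and Ndufs7, 12.1% against 0.8%. GC boxes (GGGCGG) were in 42.4% against 38.2%, ETS motifs (CCGGAAG) in 12.1% against 9.9%, CCAAT boxes in 30.3% against 41.1%, and the motif of estrogen-related receptors (TCAAGGTCA) in 0 members against 0.5%. Such matches are a description and not sites. The motifs may overlap in a promoter. The 7 with a nuclear respiratory factor 1 match were Ndufa5, Ndufa6, Ndufa8, Ndufa11, Ndufb4, Ndufs5 and Ndufs6. Ndufa1, the member that was called, held a GC box only. The windows of 4 of these 7 are shown, with the match in capitals and 10 bases on each side: Ndufa5 (chr6:24527697-24527726, minus strand), Ndufa11 (chr17:56717692-56717721, plus strand), Ndufb4 (chr16:37654371-37654400, minus strand, the nearest of 3 to its start) and Ndufs6 (chr13:73328479-73328508, minus strand).
Ndufa5: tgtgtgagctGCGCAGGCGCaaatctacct
Ndufa11: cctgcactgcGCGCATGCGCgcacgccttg
Ndufb4: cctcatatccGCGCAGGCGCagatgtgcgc
Ndufs6: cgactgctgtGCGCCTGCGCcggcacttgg

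None of these 4 members was called in any comparison.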

How the data were processed

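RNA of sorted microglia was sequenced in 42 libraries on a HiSeq 1000. The authors deposited raw counts of reads per gene, in 1 table for cortex and hippocampus and 1 file per whole-brain library. Reads were aligned with STAR 2.5.2b and counted with featureCounts 1.5.1, per the submitters' processing notes, which name a human genome build for these mouse libraries. The mouse annotation and strand setting are not given in the sources used here. Without a known strand, reads of overlapping genes such as Ndufb6 and Smim27 cannot be told apart.

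Counts were tested with edgeR 4.0.16 (R 4.3.3, limma 3.58.1): filterByExpr with a minimum count of 10, trimmed mean of M values scaling, robust quasi-likelihood tests, and Benjamini-Hochberg adjustment over all genes at 0.05. Whole brain, cortex and hippocampus were fitted separately, each with all its groups. Regions were compared over the 11 wild-type mice present in both, with the animal as a block, since the titles give both samples 1 animal number. Deviations of the 2 samples of an animal correlated at 0.027 to 0.115, over 0.1 in 4 of 11 pairs. CPM was computed from the counts with the same scaling, and the log2 scale used CPM + 1. Levels per kb used the principal GENCODE M21 transcript. Copies were sought as shared stretches of 50 bases. Scripts used Python 3.11.15, pandas 2.3.3 and matplotlib 3.10.9.

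Members and lists were chosen with earlier results of these data known. Named were all members past the threshold, with each library's value, the 3 members with the smallest p where none passed, ends of ranges, members past the threshold in up to 4 per other list, and Ndufab1 and the mitochondrial Nd genes. Ndufb1-ps is in neither table. One member entered all counts and medians but is not reported here by itself. The roles of Ndufa11b and Ndufb11b were assigned after the table was read. Alternatives were DESeq2 1.42.0, its size factors, no filter, a mean of at least 5 CPM, only the groups compared, the replicate block or none, and leaving out each library. Leaving out sets of doubtful libraries was chosen after seeing the data.

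In simulated data with 200 changed genes, the test recovered 34% of genes changed by log2 1 and 6% of those changed by 0.5 for GF 5xFAD against wild type (16529 genes), 65% and 27% for whole brain (11164 genes), 51% and 14% for acetate against GF in cortex (14739 genes), and 49% and 8% for the regions under SPF (16220 genes). Replicates of a group differed beyond sampling noise, with a chi-square per degree of freedom of 10.09 to 60.25 over 61 pairs, so none was counted as a copy of another. Depth bears on counting error, and what else may go with low depth was not tested.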

Additional observations from a re-analysis of the deposited data

Results flagged for a closer look

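Single libraries stood apart from their groups of 4 or 5 in 5 of 128 groups of values examined, over 15 members and the mean complex I level. The 15 were Ndufa1 and each member with the smallest p in a comparison. Chance alone gives about 1 in 20 such groups. Ndufb4 was at 5.73 CPM in whole-brain GF4, with the others at 6.58 to 6.93 CPM (n = 5). Ndufv1 was at 82.9 CPM in cortex SPF2, with the others at 75.6 to 76.2 CPM (n = 4). Ndufs3 was at 44.4 CPM in cortex GF532, with the others at 55.7 to 57 CPM (n = 4). Ndufc2 was at 93.5 CPM in wild-type hippocampus SPF1, with the others at 108.2 to 111.1 CPM (n = 4), and still lay above all 3 GF libraries. Ndufb3 was at 60.8 CPM in the shallow 5xFAD library SPF2142, with the others at 39.5 to 42.8 CPM (n = 4).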

How the results depend on the processing

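Of 273 counts of members called under alternatives, 257 stayed within 1.5 times the reported count and 16 did not. Where the reported count was 0, as in all comparisons but 5xFAD against wild type under GF and acetate, only 0 counted as staying. Leaving out SPF2152 was counted both among the single libraries and among the sets of doubtful libraries. None of 767 values of single members reversed, while 14 became calls and 6 ceased to be. In SPF 5xFAD against wild type, 0 members became 1 (Ndufa1) with DESeq2, with a mean of at least 5 CPM and without SPF2152, and single libraries left out gave 0 to 1. Under GF the count of 1 ranged from 0 to 1 with single libraries left out and was 0 without wild-type GF530 and GFA518. Between regions under SPF, 0 became 6 with DESeq2 and 1 with no filter on low counts. Between regions with acetate, 0 became 6 with DESeq2, 4 with a mean of at least 5 CPM, 1 with no filter, and 0 to 1 with single animals left out. The cause was not tested. Shares of all genes called under these alternatives are not given here, so the counts of members have no background beside them. Medians of all members changed sign in cortex GF against SPF without SPF1, alone or together with GFA518 (lowest -0.032). They did so in cortex acetate against SPF without SPF3, SPF4 or GFA518 (highest 0.059). In the GF region comparison the sign changed without GF532 (lowest -0.032). For 5xFAD against wild type under GF the median was at 0 without GF526. Interaction medians changed sign in 3 of 22 alternatives for GF against SPF and 5 of 20 for acetate against GF. For acetate against SPF they did so in 10 of 24.

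The replicate block changed no call. In whole brain, where equal numbers are different mice (3 pairs, r of -0.037 to -0.003), the median was 0.152 with the block and 0.103 without, with 0 members called in either fit. Between regions, without the block by animal, medians were 0.215, 0.103 and 0.309 and 0 members were called. Groups of 3 to 5 mice limited what could be called: standard errors of single members reached 0.293, so differences under log2 0.5 were mostly not detectable.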
